A study of Homo sapiens with 12 samples.

Results

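The 8 genes described here encode the main chaperones and proteases of the human mitochondrial matrix. They include the chaperonin subunits HSPD1 and HSPE1, the mitochondrial Hsp70 HSPA9, the Hsp90 paralogue TRAP1 and the J-domain cochaperone DNAJA3. LONP1 is an ATP-dependent protease, and the ring ATPase CLPX and the peptidase CLPP together form another. All 8 genes were followed in MDA-MB-231, an established human cell line derived from triple-negative breast cancer. The cells had been transfected either with a gapmer made of locked nucleic acid (LNA) that targets CYTOR (LINC00152), a long noncoding RNA, or with a control LNA. A gapmer is an antisense oligonucleotide that directs RNase H to the RNA it binds. Every array of both groups came from cells that received 30 nM LNA with a lipid reagent and were incubated for 24 h, and no array from untransfected cells was used here. Each group held 6 single-colour Illumina bead arrays of total RNA. The labels place 1 CYTOR LNA array and 3 control arrays in batch 1, and 5 CYTOR LNA arrays and 3 control arrays in batch 2. All probes that the platform annotation assigns to a member gene were taken, which gave 12 of the 47323 probes with values and 8 of 20046 named genes. HSPD1 had 4 probes, HSPE1 had 2, and each of the other 6 genes had 1.

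The genes were chosen by function, but selected on earlier results of these same arrays too: the log2 differences between CYTOR LNA and control LNA, in which the brightest HSPD1 and HSPE1 probes were lower. Differences between the groups are therefore given for the members as descriptions, with standard errors and intervals and without p-values. The labels do not say whether the arrays of a group came from separate cultures, so the spread between them may be technical.

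Most mitochondrial proteins are made in the cytosol, enter the matrix unfolded through membrane pores, and must then be folded. HSPA9 binds the incoming chain and helps to pull it in, DNAJA3 stimulates its ATPase, and HSPD1 rings capped by HSPE1 enclose the chain while it folds. LONP1 and the CLPX-CLPP complex unfold and cut damaged or unassembled matrix proteins. When misfolded proteins build up in the matrix, cells can raise these genes in a programme called the mitochondrial unfolded protein response, in which the transcription factors ATF4, ATF5, DDIT3 and CEBPB have been implicated in mammalian cells.

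HSPD1 and HSPE1 are divergent neighbours on chromosome 2. In RefSeq (GRCh38.p14) the HSPE1 start site lies 105 bases from the upstream HSPD1 start site, on the opposite strand, so that the 2 promoter windows (250 bases before to 50 bases after a start) share 204 bases. RefSeq lists a further HSPD1 start 539 bases from that of HSPE1. The first pair of windows is shown for the bases they share, and the last for a heat shock element run described below; that window shares no bases with the HSPE1 window. The capitals mark the E-box CACGTG, the palindromic NRF1 motif, and the heat shock element arrangements GAANNTTC and TTCNNGAA, which were searched on both strands.
HSPD1 upstream start, chr2:197500225-197500524, minus strand: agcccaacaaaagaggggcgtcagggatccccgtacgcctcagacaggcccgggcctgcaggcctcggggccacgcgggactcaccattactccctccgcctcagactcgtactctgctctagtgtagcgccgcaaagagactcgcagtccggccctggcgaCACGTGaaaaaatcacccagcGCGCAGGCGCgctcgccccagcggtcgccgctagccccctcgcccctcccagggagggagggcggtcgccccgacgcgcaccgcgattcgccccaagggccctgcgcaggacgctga
HSPE1 start, chr2:197500129-197500428, plus strand: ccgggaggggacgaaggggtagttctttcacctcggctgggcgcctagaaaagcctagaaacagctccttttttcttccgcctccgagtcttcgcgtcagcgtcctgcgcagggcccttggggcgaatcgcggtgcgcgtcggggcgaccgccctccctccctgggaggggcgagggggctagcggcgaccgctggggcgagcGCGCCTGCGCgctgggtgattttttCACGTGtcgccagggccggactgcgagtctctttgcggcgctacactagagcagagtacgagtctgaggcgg
HSPD1 further start, chr2:197499791-197500090, minus strand: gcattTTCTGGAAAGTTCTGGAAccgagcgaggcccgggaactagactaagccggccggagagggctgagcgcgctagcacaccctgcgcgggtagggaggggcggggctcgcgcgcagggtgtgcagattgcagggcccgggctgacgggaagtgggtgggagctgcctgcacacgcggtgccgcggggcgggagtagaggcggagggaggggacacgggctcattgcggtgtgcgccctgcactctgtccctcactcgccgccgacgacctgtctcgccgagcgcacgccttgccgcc

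The CACGTG of the upstream HSPD1 window and that of the HSPE1 window are the same genomic bases, at -88 from the HSPD1 start and -22 from the HSPE1 start. The NRF1 match is shared too, at -67 and -47. The window of the further HSPD1 start holds the run TTCTGGAAAGTTCTGGAA, in which 2 TTCNNGAA matches and 1 GAANNTTC match overlap. This run of 18 bases lies 189 bases downstream of the upstream HSPD1 start. It is upstream of the further HSPD1 start, with its TTCNNGAA matches at -245 and -235. It is also upstream of the HSPE1 start, just beyond the HSPE1 window. Over the 9 windows found for 7 of the 8 genes, CACGTG was present in 4, those of HSPD1, HSPE1, HSPA9 and LONP1, beside 7.26% of 35116 windows in the RefSeq table. The NRF1 motif was present in 5 of the 9, from HSPD1, HSPE1, DNAJA3, LONP1 and CLPX, beside 5.78% of all windows. For both motifs the site that HSPD1 and HSPE1 share is counted in 2 windows. TTCNNGAA was present in 2 of the 9 (HSPD1 and HSPA9) and in 7.74% of all, and GAANNTTC in 1 of the 9 and 6.77% of all. The ATF4-type composite TGATGNAAT was in none of the 9 and in 0.991% of all windows. The ETS motif CCGGAAG was in 2 of the 9 and 10.3% of all, and CCAAT in 2 of the 9 and 34.6% of all. The cAMP response element TGACGTCA was in 1 of the 9 and 1.85% of all. A match describes the letters of a window and is no evidence of binding.

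Before the member results, CYTOR and the cell line markers were checked. The brightest CYTOR probe was lower after its LNA, with a mean of 6.74 beside 7.83 in controls, and the groups did not overlap (log2 difference -1.10, SE 0.058, limma adjusted p = 8.0e-13, exact two-sided permutation p = 0.0022, the smallest that 924 splits allow). Its other 2 probes differed by -0.67 and -0.13. The silenced level lay near the array median of 6.53, where background was not told apart, so no exact fold is given. Of 29 marker genes with a probe, 21 were bright enough to be tested. At the brightest probe 3 of the 21 passed the test, beside 7.89% of all 12714 tested genes. They were CD44, a mesenchymal marker of this line (-0.21), and the keratin gene KRT18 (0.21) and CD14 (0.33), markers of luminal cells and leukocytes. Further probes of these 3 genes did not pass. The mesenchymal marker VIM was tested and did not pass. ESR1, FOXA1, PTPRC, CD3E, COL1A2, COL3A1, DCN and LUM had means below the median of all probes, the limit for testing. Other markers of the same cell types were brighter and did not pass. Their control means at the brightest probe were 10.84 for CD68, 8.78 for KRT8, 7.98 for EPCAM, 7.33 for KRT19, 6.76 for PDGFRB and 6.61 for COL1A1. The share of the CD44, KRT18 and CD14 shifts in any result below was not tested. Array values had medians of 6.53 on the log2 scale, and no bead counts were used. Precision was judged from the number of arrays and the spread between them, and the SEs of the 12 member probes ran from 0.032 to 0.126.

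All 12 member probes were bright enough to be tested, and by limma with Benjamini-Hochberg adjustment over 23662 probes 0 of the 12 passed an adjusted p of 0.05, beside 6.23% of all tested probes (4.11% lower and 2.12% higher). At an adjusted p of 0.10 there were 2, beside 9.07% of all. At an unadjusted p under 0.05 there were 3, with 2 lower (the brightest probes of HSPD1 and HSPE1) and 1 higher (CLPX), beside 19.0% of all. Since the members were chosen with this contrast known, nothing is read from these counts. The log2 differences ran from -0.16 to 0.11, 8 negative and 4 positive, with a median of -0.02 beside 0.01 over all tested probes. The median size of a difference was 0.05, and over all tested probes 0.04.

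**Figure D1:**
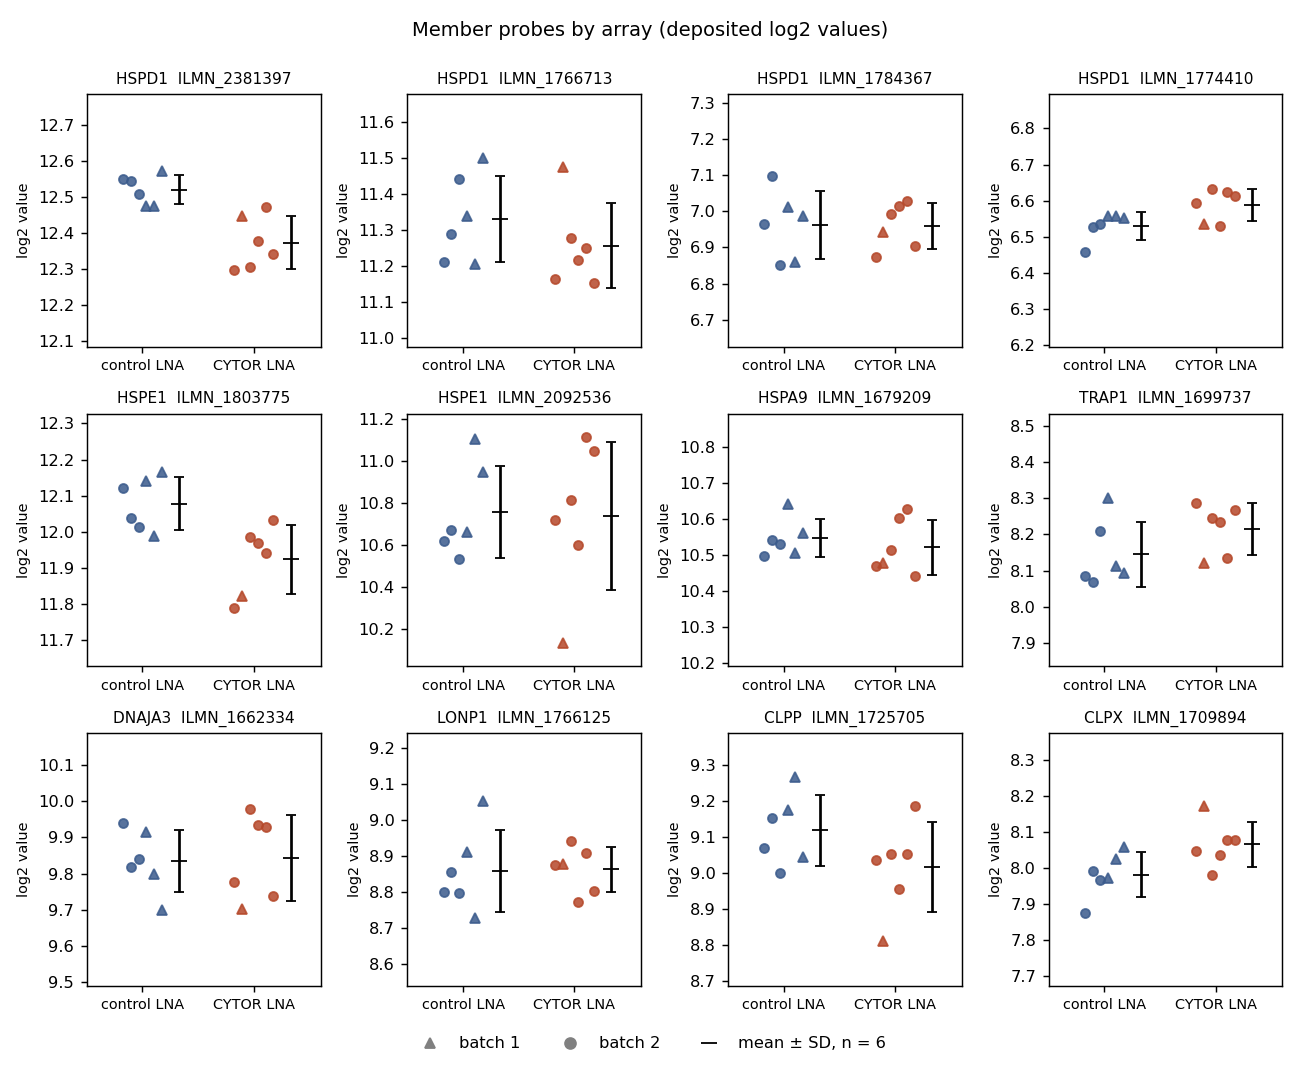
Deposited log2 value (vertical axis) of every array for the 12 member probes, control LNA in blue and CYTOR LNA in red, with triangles for batch 1, circles for batch 2 and black bars for the mean and SD of 6 arrays. Vertical axes start at different levels and the HSPE1 ILMN_2092536 panel spans a wider range; the groups separate only at HSPD1 ILMN_2381397, where the highest CYTOR LNA array (12.471) lies just below the lowest control (12.474).

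The chaperonin ring subunit HSPD1, also called HSP60, was slightly lower at its brightest probe. At ILMN_2381397 the 6 CYTOR LNA arrays had a lowest value of 12.30, a median of 12.36 and a highest value of 12.47, and the 6 control arrays 12.47, 12.53 and 12.57. Every CYTOR LNA array lay below every control array, by a smallest gap between 12.471 and 12.474, and 5.24% of all tested probes had groups that did not overlap. The group means were 12.37 ± 0.07 and 12.52 ± 0.04 (SD, n = 6 each), a log2 difference of -0.14 (SE 0.044, 95% interval -0.23 to -0.05), or 9.39% lower. The difference was negative in both batches, -0.18 in batch 2 and -0.06 in batch 1 with its single CYTOR LNA array.

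The other HSPD1 probes did not show the same separation. ILMN_1766713, annotated to the same transcript NM_002156, ran from 11.15 to 11.48 (median 11.23) after the CYTOR LNA and from 11.21 to 11.50 (median 11.31) in controls. Its log2 difference was -0.04 (SE 0.061), with -0.10 in batch 2 and 0.13 in batch 1, where the CYTOR LNA array was the highest of its group. ILMN_1784367, also annotated to NM_002156, had means of 6.96 in both groups and a difference of -0.01 (SE 0.046). ILMN_1774410, annotated to the transcript variant NM_199440, had means of 6.59 and 6.53, near the array median of 6.53, and a difference of 0.06 (SE 0.032, interval -0.01 to 0.13). No detection p-values were used, so signal of these 2 dim probes was not told apart from background. The RefSeq table lists 22 HSPD1 pseudogenes and 28 of HSPE1, so how far related transcripts contribute to these probes is uncertain.

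HSPE1, the HSP10 lid of the chaperonin, gave the lowest difference among the members. At ILMN_1803775 the CYTOR LNA arrays had a lowest value of 11.79, a median of 11.95 and a highest of 12.03, and the controls 11.99, 12.08 and 12.17. The groups overlapped: 5 of the 6 CYTOR LNA arrays lay below all controls, and 4 of the 6 controls lay above all CYTOR LNA arrays. The means were 11.92 ± 0.10 and 12.08 ± 0.07 (SD, n = 6 each), a log2 difference of -0.16 (SE 0.053, interval -0.27 to -0.05), or 10.5% lower. It was -0.11 within batch 2 and -0.28 within batch 1. HSPE1 shares its start with the readthrough gene HSPE1-MOB4, and these probes were not told apart from its transcripts.

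The second HSPE1 probe was the most variable of the 12. ILMN_2092536 ran from 10.14 to 11.11 (median 10.77) after the CYTOR LNA and from 10.54 to 11.11 (median 10.67) in controls, with SDs of 0.35 and 0.22. The 4 highest of the 12 arrays were replicates 5 and 6 of both groups, with 11.11 and 11.05 after the CYTOR LNA and 11.11 and 10.95 in controls, whose array labels end in the letters I to L. The lowest array was CYTOR LNA replicate 2, the single silenced array of batch 1, at 10.14. The difference was -0.04 (SE 0.126, interval -0.30 to 0.22) over both batches, -0.77 within batch 1 and 0.25 within batch 2. Its sign rested on single arrays: the difference was 0.25 without CYTOR LNA replicate 2 and 0.01 without control replicate 5. With chip position as a further term the difference was -0.03 and the SE 0.089.

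**Figure D2:**
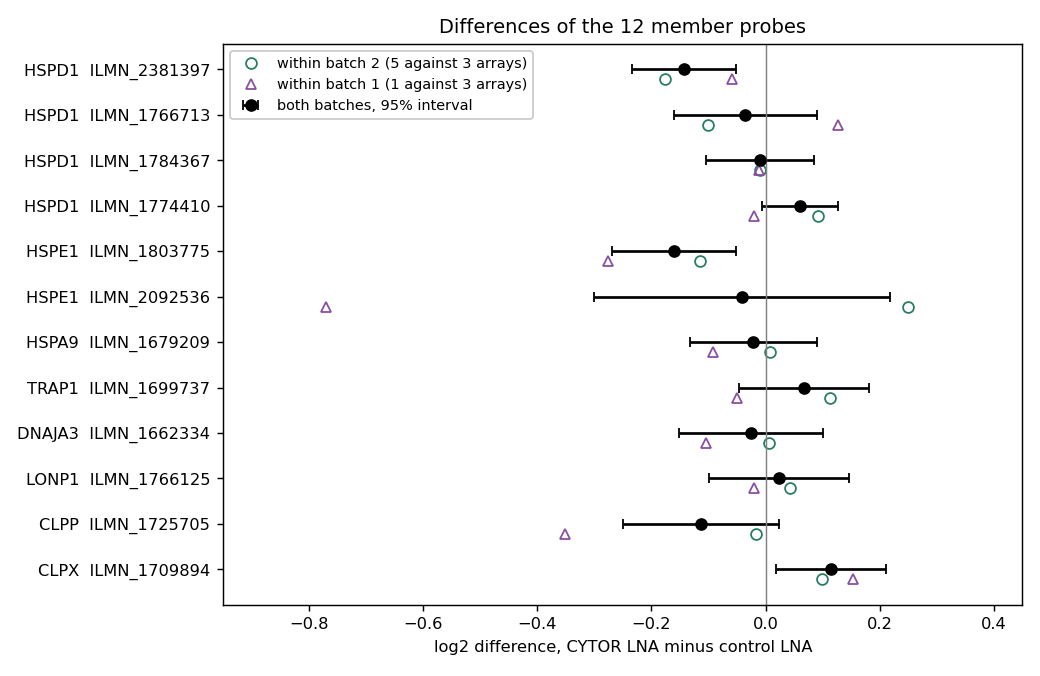
Log2 difference, CYTOR LNA minus control LNA (horizontal axis), of each member probe, with black points and bars for the fit over both batches and its 95% interval, open circles for batch 2 and open triangles for batch 1. The intervals of HSPD1 ILMN_2381397, HSPE1 ILMN_1803775 and CLPX leave out 0, beside 19.0% of all tested probes (limma unadjusted p under 0.05). The members were chosen with this contrast known, so nothing is read from that. HSPE1 ILMN_2092536 has batch values of -0.77 and 0.25 on opposite sides of 0.

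Since HSPD1 and HSPE1 share a promoter region, their brightest probes were compared array by array within each group, which does not use the difference between the groups. In the 6 control arrays Pearson's r was 0.45 (exact permutation p = 0.33 over 720 orders) and Spearman's rho 0.55 (exact permutation p = 0.27). In the 6 CYTOR LNA arrays r was -0.10 (exact permutation p = 0.85) and rho -0.03 (exact permutation p = 1). Adjusted over these 2 relations, the exact permutation p-values for r were 0.67 and 0.85, and those for rho 0.54 and 1. Without the 2 arrays farthest from the HSPD1 median r was 0.87 in controls and 0.53 after the CYTOR LNA, over 4 arrays each. With batch means removed r was 0.63 and 0.22. No relation passed the test at 6 arrays a group, so neither a joint nor a separate movement of the neighbours within a group was shown.

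**Figure D3:**
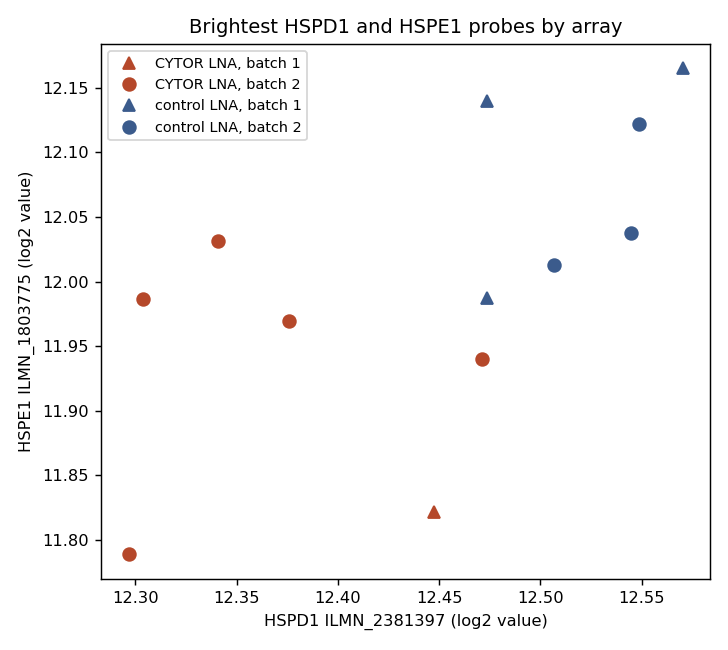
Log2 value of the brightest HSPD1 probe (horizontal axis) and HSPE1 probe (vertical axis) on each of the 12 arrays, coloured by group with triangles for batch 1 and circles for batch 2. The CYTOR LNA arrays lie to the left of all controls, and within each group of 6 the points show no tested relation (r = 0.45 in controls and -0.10 after the CYTOR LNA).

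After group and batch means were removed, the residuals of the 2 brightest probes had r = 0.08 over the 12 arrays. The genes most like HSPD1 by that measure, among 12706 genes compared, were RPA1 (r = 0.94), ZNF184 (0.92), SLCO1B3 (0.91), PCDHB16 (0.90) and MINDY3 (0.89). For HSPE1 they were CTDP1 (0.89), CD83 (0.89), LRIG3 (0.88), RBM41 (0.86) and CFAP69 (0.86). Each is the top of a search over all genes with only 9 residual degrees of freedom, and is given as a description. Of the members, CLPX (0.49) had the highest r with HSPD1 and TRAP1 (-0.77) the lowest, and LONP1 (0.37) had the highest r with HSPE1.

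The Hsp70 arm of the matrix system differed little between the groups. HSPA9, also called mortalin, ran from 10.44 to 10.63 (median 10.50) after the CYTOR LNA and from 10.50 to 10.64 (median 10.54) in controls. The groups overlapped widely, and the log2 difference was -0.02 (SE 0.054, interval -0.13 to 0.09). DNAJA3, the J-domain partner also called TID1, ran from 9.70 to 9.98 (median 9.85) and from 9.70 to 9.94 (median 9.83). Its difference was -0.03 (SE 0.061, interval -0.15 to 0.10). For both genes the sign turned between batches, with -0.09 and -0.10 in batch 1 and 0.01 in batch 2. TRAP1, the mitochondrial Hsp90 paralogue, ran from 8.12 to 8.29 (median 8.24) after the CYTOR LNA and from 8.07 to 8.30 (median 8.10) in controls. Although 4 of the 6 TRAP1 controls lay below all CYTOR LNA arrays, the groups overlapped at the top, and the difference was 0.07 (SE 0.055, interval -0.05 to 0.18).

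The 3 genes for the LONP1 and CLPX-CLPP proteases had differences of different sign. LONP1, the Lon protease that also binds mitochondrial DNA, ran from 8.77 to 8.94 (median 8.88) after the CYTOR LNA and from 8.73 to 9.05 (median 8.83) in controls, with a difference of 0.02 (SE 0.059, interval -0.10 to 0.15). CLPP, the peptidase barrel, ran from 8.81 to 9.19 (median 9.04) and from 8.999 to 9.27 (median 9.11). Its difference was -0.11 (SE 0.066, interval -0.25 to 0.02), with -0.35 in batch 1 and -0.02 in batch 2. The CLPP value of CYTOR LNA replicate 2 (8.81) was the lowest of the 12 arrays, and without that array the difference was -0.02.

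CLPX, the ring ATPase that unfolds proteins and feeds them to CLPP, had the highest difference among the members in the reported fit. Its CYTOR LNA arrays had a lowest value of 7.98, a median of 8.06 and a highest of 8.17, and its controls 7.88, 7.98 and 8.06. The groups overlapped, with 3 CYTOR LNA arrays above all controls and 3 controls below all CYTOR LNA arrays. The difference was 0.11 (SE 0.047, interval 0.02 to 0.21), or 8.29% higher, with 0.15 in batch 1 and 0.10 in batch 2. With batch as a random block the CLPX difference was 0.05, below the 0.07 of TRAP1. Values for CLPP and CLPX thus differed in sign although their products form 1 protease, but the difference between them was not tested.

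Over all 12 probes, 5 had the same sign in both batches: ILMN_2381397 and ILMN_1784367 of HSPD1, ILMN_1803775 of HSPE1, CLPP and CLPX. None of the 12 had an unadjusted batch p under 0.05 in the limma fit, as had 1.79% of all tested probes. That is fewer than the share of about 0.05 that this threshold passes when batches do not differ. Whether the deposited values had been adjusted for batch was not given in the sources and was not tested. CYTOR LNA replicate 2 held the lowest or highest value of its group at 6 of the 12 probes, as did control replicate 6. The other arrays did so at 2 to 5 of the 12. In the reported fit the interval bounds of the 12 probes reached from -18.8% to 16.3%, both at the variable HSPE1 probe, whose difference without CYTOR LNA replicate 2 (0.25, SE 0.093) alone would pass the upper bound. The member genes span 3.07 to 59.5 kb of genome with a median of 25.1 kb, beside 27.2 kb for all tested genes and 83.0 kb for the genes that fell.

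The wider pathway was described with 6 lists. These too were drawn up with earlier results of the arrays known, so their calls, counts of signs and p-values are not independent evidence. Of 95 genes tested by their brightest probe, 5 fell, 1 rose and 89 did not pass, or 6.32% called beside 7.89% of all 12714 tested genes (5.40% lower and 2.49% higher). Counts at an unadjusted p under 0.05 are given for each list and stand beside 21.6% of all tested genes. Leaving out CYTOR LNA replicate 2, the only silenced array of batch 1, leaves the batch 2 difference, which is given where it differs by over 1.5 times or in sign. The median size of a log2 difference was 0.05, and over all tested genes also 0.05.

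Other mitochondrial chaperones and cochaperones did not pass by limma: 0 of 13 tested, with 1 lower and 1 higher at an unadjusted p under 0.05, and a median difference of -0.01 beside 0.00 over all genes. The largest differences were in DNAJC15, a J-domain protein of the import motor (-0.16, SE 0.052, groups not overlapping, limma adjusted p = 0.068), DNLZ, which binds HSPA9 (0.10), the prohibitin PHB2 (-0.10) and DNAJC19 (0.08). Without CYTOR LNA replicate 2 the difference was 0.24 for DNLZ and 0.05 for DNAJC19. Of 15 other mitochondrial proteases and peptidases 1 fell, and 12 had a positive difference, with a list median of 0.04 and 1 lower and 1 higher at an unadjusted p under 0.05. The gene that fell was IMMP2L, a subunit of the inner membrane peptidase, which ran from 6.60 to 6.71 after the CYTOR LNA and from 6.87 to 6.98 in controls. All 6 CYTOR LNA arrays lay below the controls, and the difference was -0.24 (SE 0.034, limma adjusted p = 2.7e-05). This probe is about as dim as the faint HSPD1 probes, so its signal was not told apart from background either. IMMP2L spans 900 kb, the longest of the 6 called list genes. MIPEP, which trims imported proteins (0.12), HTRA2 (0.08), SPG7 (0.07) and XPNPEP3 (0.07) did not pass. Without CYTOR LNA replicate 2 the values were 0.00 for HTRA2, 0.12 for SPG7 and -0.01 for XPNPEP3.

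Of 19 import and carrier genes 1 fell, 14 had a negative difference, and the median was -0.03, with 4 lower and 0 higher at an unadjusted p under 0.05. TIMM22, the channel for carrier proteins in the inner membrane, ran from 9.16 to 9.62 (median 9.58) after the CYTOR LNA and from 9.71 to 9.88 (median 9.77) in controls. The groups did not overlap, and the difference was -0.31 (SE 0.067, limma adjusted p = 0.0042). Without CYTOR LNA replicate 2, whose TIMM22 value of 9.16 stood apart, it was -0.18 and no longer passed (limma adjusted p = 0.069). MTX2, of the outer membrane sorting complex, was -0.17 at its brightest probe, which did not pass, and fell by 0.23 at a second probe (limma adjusted p = 0.0097). TOMM40, the outer membrane pore (-0.13), TOMM6 (-0.13) and TIMM8A (-0.08) did not pass. Without CYTOR LNA replicate 2 they were -0.02, -0.06 and -0.03.

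Among 12 regulators and targets linked to the mitochondrial unfolded protein response 1 fell and none rose, with 3 lower and 2 higher at an unadjusted p under 0.05 and a median of -0.02. CEBPB, a bZIP transcription factor, ran from 10.49 to 10.80 after the CYTOR LNA and from 10.82 to 11.06 in controls, without overlap (-0.25, SE 0.061, limma adjusted p = 0.014). Without CYTOR LNA replicate 2 its difference was -0.17 and did not pass (limma adjusted p = 0.13). ATF5 (-0.22, SE 0.080, limma adjusted p = 0.11), CEBPG (-0.16), the heme-regulated kinase gene EIF2AK1 (0.15) and the asparagine synthetase gene ASNS (0.12) did not pass. Without CYTOR LNA replicate 2 ATF5 was -0.09. Chosen after their values were seen, ATF4 had a difference of 0.07 and DDIT3 one of -0.02, and without that array 0.17 and 0.04.

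Of 19 cytosolic and nuclear heat shock chaperones and cochaperones 1 fell and none rose, with 4 lower and 0 higher at an unadjusted p under 0.05, and the median was -0.02. FKBP4, the FKBP52 immunophilin that works with Hsp90 on steroid receptors, ran from 8.53 to 8.995 (median 8.81) after the CYTOR LNA and from 9.06 to 9.23 (median 9.20) in controls. The groups did not overlap, and the difference was -0.42 (SE 0.067, 1.34-fold lower, limma adjusted p = 0.00013). BAG3 (-0.15), the inducible Hsp70 gene HSPA1A (-0.13), HSPH1 (-0.12, groups not overlapping) and HSPA4 (0.11) did not pass. BAG3 was -0.09 without CYTOR LNA replicate 2. HSPA1A has a near-identical copy, so its probe assignment is uncertain.

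Of 17 genes of mitochondrial mass and gene expression 1 fell and 1 rose, with a median of -0.00 and 3 lower and 1 higher at an unadjusted p under 0.05. LRPPRC, which stabilizes mitochondrial mRNAs, ran from 7.90 to 8.11 after the CYTOR LNA and from 8.19 to 8.42 in controls (-0.29, SE 0.054, limma adjusted p = 0.00083). POLG, the mitochondrial DNA polymerase, ran from 7.22 to 7.45 and from 7.06 to 7.25, with overlap (0.19, SE 0.050, limma adjusted p = 0.020). The POLG call was lost without CYTOR LNA replicate 2 (0.18, limma adjusted p = 0.064) and without control replicate 2 (0.17, limma adjusted p = 0.092). TFAM, which packages mitochondrial DNA (0.11), ESRRA (-0.11), MTERF1 (0.10) and PPARGC1A (-0.08) did not pass. The PPARGC1A probe was dim, with means of 6.61 after the CYTOR LNA and 6.69 in controls. Its signal was not told apart from background. MTERF1 was 0.15 without CYTOR LNA replicate 2.

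**Figure D4:**
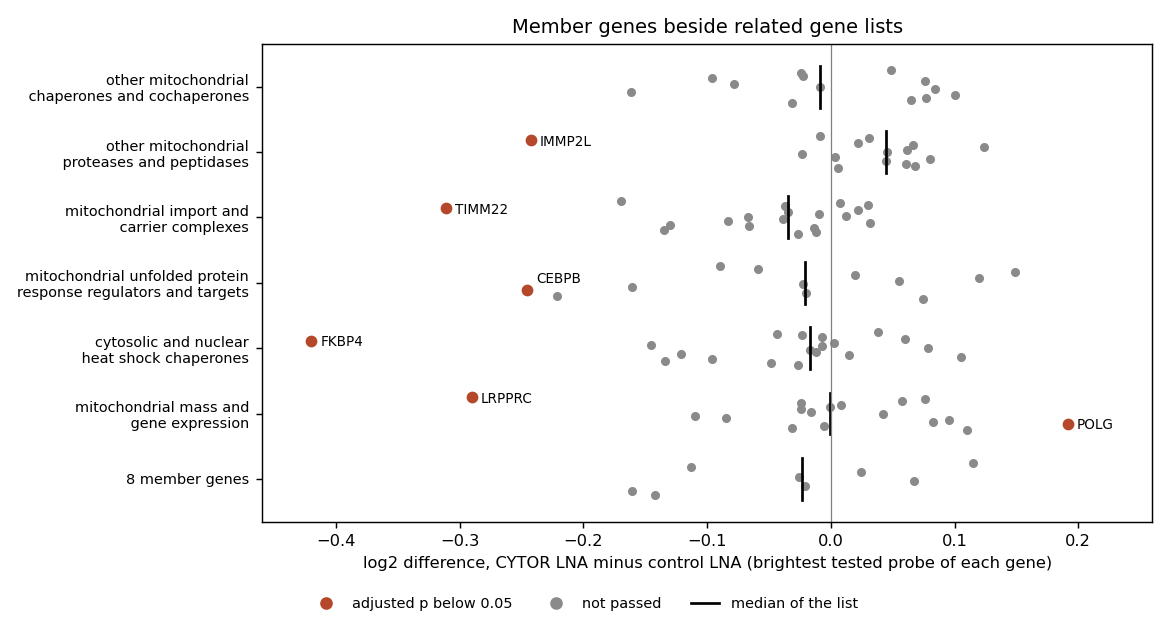
Log2 difference, CYTOR LNA minus control LNA (horizontal axis), of each tested gene by its brightest probe, for the 8 member genes and the 6 related lists, with red points for genes that passed an adjusted p of 0.05, grey points for the others and black lines for list medians. The 5 genes that fell and POLG, which rose, come from 5 of the lists, and the members lie between -0.16 and 0.11.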

How the data were processed

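The deposited values are on the log2 scale, and the authors made them with the lumi package per the submitters' processing notes; its version, the transformation, the normalization and whether batches were adjusted were not given in the sources used here. If the transformation compresses dim signals, differences there are understated. Of the probe rows, 784 without values were left out. Groups, replicate numbers and batches came from the labels.

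Probes were named through the platform annotation and symbols updated through RefSeq (GRCh38.p14). Probes whose mean over 12 arrays reached the median of all, 6.52, were tested, 23662 probes and 12714 genes. limma 3.58.1 in R 4.3.3 fitted group and batch with an intensity trend (9 residual degrees of freedom), with p-values adjusted after Benjamini and Hochberg across the tested probes and a threshold of 0.05, and was tested on simulated data. A gene of a list is represented by its brightest tested probe. Named from each list were up to 5 called genes by p and 4 others by size of difference, and for HSPD1 and HSPE1 the 5 genes with the highest residual r.

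The members and lists were chosen with earlier results of these data known. Replicate numbers are shared between the groups, but same-numbered arrays can lie in different batches. Correlations of their deviations from the group means ran from r = -0.17 to 0.18, positive only for replicate 4. Same-numbered arrays were therefore not taken as pairs. Alternatives varied the batch term, replicate block, chip position, filter, normalization, variance model, threshold and arrays.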

Additional observations from a re-analysis of the deposited data

Results flagged for a closer look

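Single arrays stood apart from the other 5 of their group, by a gap of more than 0.625 of the group's range, in 6 of 124 groups checked over VIM and the probes whose differences or correlations are given above; chance gives about 1 in 20. Control replicate 1 was lowest at the dim HSPD1 probe ILMN_1774410, at 6.46 with the next control at 6.53. CYTOR LNA replicate 2 was lowest for TIMM22, at 9.16 with the next array at 9.54. Control replicate 3 was lowest for FKBP4, at 9.06 with the next control at 9.18. CYTOR LNA replicate 2 was also lowest for DNLZ, at 8.58 with the next array at 8.96, and for ASNS, at 8.64 with the next at 8.81. Control replicate 2 was lowest for CEBPG, at 8.59 with the next control at 8.69.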

How the results depend on the processing

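CYTOR passed in all 25 alternative fits. The brightest HSPD1 and HSPE1 probes were selected as lower in this contrast, so their sign under other fits supports nothing. Leaving out each array in turn gave -0.18 to -0.13 for HSPD1, -0.18 to -0.11 for HSPE1 and -1.14 to -1.05 for CYTOR. Within batch 1, with its single CYTOR LNA array, the HSPD1 brightest probe differed by -0.06 (-0.058) and HSPE1 by -0.28.

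For the same reason nothing is read from calls of members, given only to show what the settings move. Batch 1 has a single silenced array, whose spread is taken from its 3 controls, so every count within batch 1 rests on that array. The count of 0 member probes called lower was 1 with array weights, with the brightest 30% of probes, without an intensity trend and within batch 2 (HSPD1 each time), 1 with chip position (HSPE1), and 2 without the batch term, with batch as a random block and at an adjusted p of 0.10 (both genes; 9.07% of all probes at 0.10). Within batch 1 it was 2, the variable HSPE1 probe and CLPP, and within batch 2 the variable HSPE1 probe was called higher (1). Leaving out arrays gave 0 to 1 lower, with 1 for HSPD1 on leaving out CYTOR LNA replicate 2, CYTOR LNA replicate 5 or control replicate 5, and 1 for HSPE1 without CYTOR LNA replicate 6. With the replicate block beside batch the member counts stayed 0 lower and 0 higher, HSPD1 differed by -0.15 and HSPE1 by -0.17. Over all tested probes 1475 passed in the reported fit, 1234 with the replicate block, 2678 with batch as a random block and 2574 within batch 1.

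List counts also moved. For other chaperones, genes called lower were 1 without the batch term, with a random batch block, with the brightest 30% of probes, without a trend, within batch 1 and at 0.10, and 0 to 1 over left-out arrays; genes called higher were 1 within batch 2 and 0 to 1 over left-out arrays. For proteases, lower was 0 with the brightest 30% of probes, where IMMP2L was not tested, and higher was 1 with a random batch block and within batch 1. For import genes, lower was 2 without the batch term, at 0.10 and with any tested probe, 3 with a random batch block and within batch 1, 0 within batch 2, and 0 to 1 over left-out arrays. For unfolded protein response genes, lower was 2 without the batch term, with a random batch block, the brightest 30% of probes, chip position, no trend, the replicate block, within batch 1 and at 0.10, 0 within batch 2, and 0 to 2 over left-out arrays; higher was 2 with a random batch block. For heat shock chaperones, lower was 2 with a random batch block and without a trend, and higher was 2 within batch 1. For mitochondrial mass genes, lower was 3 with a random batch block, and higher was 2 within batch 2 and 0 to 1 over left-out arrays. IMMP2L, FKBP4 and LRPPRC passed under every alternative that tested them. Where no construction shows it, the cause was not tested.

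The sign of the HSPD1 and HSPE1 correlation depended on the probes. In controls it was -0.12 (ILMN_1766713 and ILMN_2092536), -0.15 (ILMN_1774410 and ILMN_1803775), -0.22 (ILMN_1784367 and ILMN_2092536) and -0.11 (ILMN_2381397 and ILMN_2092536). After the CYTOR LNA it was 0.37, 0.80 and 0.43 for ILMN_1774410 with ILMN_1803775, ILMN_1774410 with ILMN_2092536 and ILMN_1784367 with ILMN_1803775, 0.15 for ILMN_1784367 with ILMN_2092536, 0.22 with batch means removed and 0.53 without the 2 farthest arrays. The other control pairs gave 0.35 (ILMN_1766713 and ILMN_1803775), 0.47 (ILMN_1784367 and ILMN_1803775) and 0.47 (ILMN_1774410 and ILMN_2092536). After the CYTOR LNA the sign held at -0.17 (ILMN_2381397 and ILMN_2092536), -0.38 (ILMN_1766713 and ILMN_1803775) and -0.76 (ILMN_1766713 and ILMN_2092536). The 0.80 (exact permutation p = 0.044, unadjusted) joined a probe near the array median with the most variable probe. The cause of these changes was not tested.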
